A study of Homo sapiens with 5 samples.

Results

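The 9 genes described here belong to the cellular response to interferon: IFI6, IFIT1, IFIT3, ISG15, MX1, OAS1, OAS2, IFI35 and ADAR. Every probe annotated to one of them was taken, which gave 13 of the 14747 probes on the arrays, and each of the 9 genes had at least 1 probe. IFI6, IFIT3, OAS2 and ADAR had 2 probes each. The genes were selected on their deposited values, for how these varied between the arrays of a group, so the values below are a description and no test is given for the 9 genes themselves.

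The samples were LX-2, an established line of human hepatic stellate cells, the cells that lay down scar matrix in the injured liver. All cells, the controls included, received 50 pmol of a biotin-tagged miR-25-3p duplex, delivered by lipofection, and were lysed 24 hours after transfection. RNA captured on streptavidin beads (pull-down, 3 arrays) was set against RNA of the control (2 arrays), which the series design and the methods of the study describe as whole cell lysate, although the extraction label of the controls repeats the bead step. The sample labels list no pull-down with another duplex or with beads alone and no untransfected cells, so an effect of transfection on the cells is shared by both groups and cannot be told apart from the basal state of the line.

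Interferons are secreted proteins that warn cells of viral nucleic acid. Type I interferon binds the receptor IFNAR1 and IFNAR2, the kinases JAK1 and TYK2 pass the signal on, and a complex that contains IRF9 binds a short promoter element and switches on many antiviral genes together. Double-stranded RNA inside a cell can start the production of interferon through the sensors RIG-I and MDA5, and is also bound by EIF2AK2 (PKR) and the OAS enzymes, which interferon induces. In stellate cells the programme is studied as part of the reaction of the liver to viral infection and inflammation. The bait of the pull-down was the miR-25-3p strand, shown here as the mature sequence in RefSeq (GRCh38.p14, chr7:100093571-100093592, minus strand) with the seed, bases 2 to 8, in capitals.

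hsa-miR-25-3p: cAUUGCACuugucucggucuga

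The promoters of the 9 genes are shown as background on the promoter element named above. RefSeq windows of 250 bases before to 50 bases after the annotated start were given for 8 of the 9 genes, with 13 start sites in all. They were searched on both strands for GAAANNGAAA, a core of the interferon-stimulated response element, and for its reverse complement TTTCNNTTTC. The motif stood in 7 of the 13 windows, in IFI6, IFIT1, IFIT3, ISG15 and MX1, against 3.57% of 35116 human promoter windows of the same length. A second search with 1 base between the blocks (GAAANGAAA or TTTCNTTTC) was added after OAS1 and IFI35 had shown no match to the first; it matched in 5 of the 13 windows, against 3.12% of all windows. The 9 genes are known interferon response genes, so matches were likely whatever the arrays showed. Some windows are start sites of the same gene, and nothing about the arrays is read from these counts. One stretch per gene follows, on the strand of the gene (build GRCh38.p14). Capitals mark matches to the first motif, and in OAS1 and IFI35 to the second. The 2 matches of MX1 start site 1 to the second motif are not marked. IFI6 lies at chr1:27672276-27672348 (minus strand), IFIT1 at chr10:89392489-89392547, IFIT3 (start site 1) at chr10:89327833-89327892, ISG15 at chr1:1013362-1013421, MX1 (start site 1) at chr21:41420544-41420603, OAS1 at chr12:112906920-112906978 and IFI35 at chr17:43006743-43006801 (all plus strand after IFI6).

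IFI6: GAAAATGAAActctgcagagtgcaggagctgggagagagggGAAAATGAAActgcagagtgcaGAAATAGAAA
IFIT1: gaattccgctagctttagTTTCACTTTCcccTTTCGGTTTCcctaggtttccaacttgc
IFIT3: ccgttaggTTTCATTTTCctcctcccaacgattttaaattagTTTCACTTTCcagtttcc
ISG15: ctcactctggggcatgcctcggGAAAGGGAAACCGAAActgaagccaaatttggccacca
MX1: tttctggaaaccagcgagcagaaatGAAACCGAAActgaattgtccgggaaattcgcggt
OAS1: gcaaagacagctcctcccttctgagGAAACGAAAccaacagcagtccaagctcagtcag
IFI35: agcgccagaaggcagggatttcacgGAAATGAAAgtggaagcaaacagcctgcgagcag

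IFI6 held 3 matches, written as GAAAATGAAA, again GAAAATGAAA, and GAAATAGAAA, and the first 2 lay in a repeated stretch. In ISG15 a pair of matches overlapped by one block, giving GAAAGGGAAACCGAAA. Neither motif was found in the 3 windows of ADAR. A match is a string of letters in a window and was not tested as a binding site.

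The values are normalized probe signals on a log2 or log2-like scale, so a difference of 1 is read here as 2-fold. They give the standing of a probe relative to the other probes of its array, not the amount of RNA captured, and in such bulk RNA fewer responding cells and less RNA per cell cannot be told apart. Array medians lay between 9.01 and 9.03, and the correlation over all probes was 0.963 to 0.985 among pull-downs, 0.980 between the controls and 0.902 to 0.951 between the groups. Of the stellate cell and fibroblast markers 12 of 13 were measured. They ran from VIM, the brightest (14.05 to 14.33), to DCN, the dimmest (7.70 to 8.20). Of the hepatocyte markers 2 of 5 were measured (ALB, 8.17 to 9.23; SERPINA1, 7.79 to 7.87) and of the leukocyte markers 2 of 7 (CD68, 10.46 to 12.25; CD14, 7.99 to 8.26). The 3 cholangiocyte and 4 endothelial markers were not measured. Lower quartiles of the arrays lay between 8.25 and 8.28.

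The 9 genes did not separate pull-down from control as a set. Pull-down 2 and control 1 carried high values of most of them, and pull-down 3 and control 2 carried low ones. Pull-down 2 was above pull-down 3 in 13 of 13 probes, where 49.8% of all probes lay that way, and control 1 was above control 2 in 13 of 13 probes, against 49.7% of all probes. Both held together in 13 of 13 probes, against 35.1% of all. Averaged over the 9 genes by their brightest probes, the values were 9.53, 9.97 and 9.13 in pull-downs 1, 2 and 3 and 10.15 and 9.22 in controls 1 and 2.

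**Figure D1:**
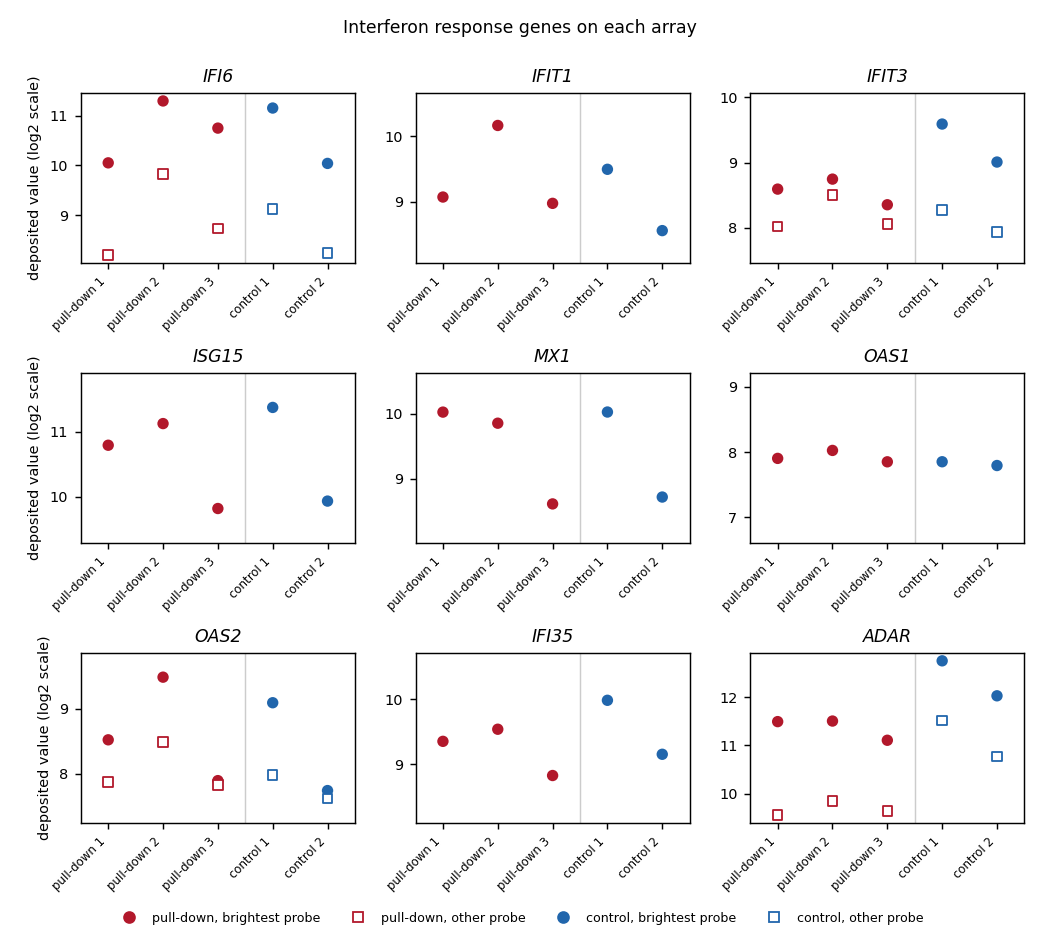
Deposited values (vertical axis, log2 scale, each panel with its own range) of the 9 interferon response genes on 3 pull-down arrays (red) and 2 control arrays (blue). Circles are the brightest probe of a gene and open squares its other probe; pull-down 2 lies above pull-down 3, and control 1 above control 2, for all 13 probes.

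ISG15 is a ubiquitin-like protein that is attached to other proteins after interferon stimulation. It measured 10.79, 11.13 and 9.82 in pull-downs 1, 2 and 3 and 11.37 and 9.94 in controls 1 and 2. The gap between arrays of one group was 2.47-fold for pull-down 2 over pull-down 3 and 2.71-fold for control 1 over control 2. The group means of ISG15 nearly coincided, at 10.58 ± 0.68 in pull-downs (SD, n = 3) and 10.65 ± 1.02 in controls (SD, n = 2), a pull-down minus control difference of -0.07 (SE 0.54).

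MX1 is a dynamin-like GTPase that blocks the replication of influenza and other viruses. Its values were 10.02, 9.85 and 8.61 in pull-downs 1, 2 and 3 and 10.02 and 8.72 in controls 1 and 2. Pull-downs 1 and 2 stood with control 1, and pull-down 3 with control 2. MX1 was the only one of the 9 genes in which pull-down 1 was above pull-down 2, and pull-down 1 was 2.65-fold above pull-down 3. The group means were 9.50 ± 0.77 in pull-downs (SD, n = 3) and 9.37 ± 0.92 in controls (SD, n = 2), and the ranges of the groups overlapped almost completely.

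OAS1 and OAS2, neighbours on the chromosome with OAS3, encode enzymes that make 2′-5′ oligoadenylate from ATP when they bind double-stranded RNA, which in turn activates RNase L. OAS2 measured 8.52, 9.48 and 7.90 in pull-downs 1, 2 and 3 and 9.09 and 7.75 in controls 1 and 2. Its gap of 3.00-fold between pull-down 2 and pull-down 3 was the widest of the 9 genes, and control 1 was 2.54-fold above control 2. The second OAS2 probe gave the same order at a lower signal, with 7.88, 8.49 and 7.83 in pull-downs and 7.99 and 7.62 in controls. OAS1 measured 7.90, 8.03 and 7.85 in pull-downs and 7.85 and 7.80 in controls. These values of OAS1 lie under the lower quartile of every array, and its range over the 3 pull-downs, 0.17, was the narrowest of the 9.

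IFIT1 and IFIT3, chromosomal neighbours as well, encode tetratricopeptide proteins. IFIT1 binds viral RNA that lacks the methylated cap of the host, and IFIT3 stabilizes IFIT1 in a complex. IFIT1 measured 9.07, 10.17 and 8.97 in pull-downs 1, 2 and 3 and 9.50 and 8.56 in controls 1 and 2. Here pull-down 2 stood alone among the pull-downs, 2.14-fold above pull-down 1 and 2.29-fold above pull-down 3, and control 1 was 1.92-fold above control 2. The brightest IFIT3 probe gave 8.60, 8.75 and 8.36 in pull-downs and 9.59 and 9.01 in controls, with no overlap between the groups. The second IFIT3 probe gave 8.02, 8.50 and 8.06 in pull-downs and 8.27 and 7.94 in controls. The probes of IFIT3 therefore differed in how they stood between the groups, with pull-down minus control differences of -0.74 (SE 0.22) for the brightest and 0.09 (SE 0.20) for the other, but had the same high and low array within each pair of pull-downs 2 and 3 and of controls.

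IFI6 is a small membrane protein that restrains flaviviruses and apoptosis. It measured 10.05, 11.29 and 10.75 in pull-downs 1, 2 and 3 and 11.15 and 10.04 in controls 1 and 2. Its low pull-down was pull-down 1, which was 2.36-fold below pull-down 2. By brightest probes IFI6 was the only one of the 9 genes with pull-down 1 below pull-down 3. Pull-down 1 was also below pull-down 3 on the second probes of IFIT3 (8.02 against 8.06) and ADAR (9.56 against 9.64). The second IFI6 probe had the same order of the pull-downs and of the controls, with 8.20, 9.83 and 8.74 in pull-downs and 9.12 and 8.25 in controls. IFI35, an interferon-induced leucine zipper protein that can also act outside the cell, measured 9.35, 9.54 and 8.83 in pull-downs and 9.98 and 9.15 in controls. Its profile over the arrays was the closest of the 9 to the average of all of them, with a root mean square difference of 0.127 over the 5 arrays after centring.

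ADAR encodes the enzyme that converts adenosine to inosine in double-stranded RNA and so keeps the sensors from reacting to the RNA of the cell. One of its promoters is induced by interferon and another is used constantly. The brightest ADAR probe gave 11.49, 11.50 and 11.11 in pull-downs 1, 2 and 3 and 12.75 and 12.03 in controls 1 and 2. The other gave 9.56, 9.85 and 9.64 in pull-downs and 11.52 and 10.77 in controls. Neither probe overlapped between the groups, and the pull-down mean was 2.03-fold below the control mean for the brightest probe (-1.02, SE 0.25) and 2.76-fold below for the other (-1.47, SE 0.24). ADAR had the largest group difference of the 9, and its profile was the farthest from the average of the 9 (root mean square difference 0.466). On both probes pull-down 2 was above pull-down 3 and control 1 above control 2. Pull-down 1 lay between pull-downs 2 and 3 on the brightest probe and was the lowest pull-down on the other.

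Over the 9 genes the median gap was 0.71 (1.64-fold) for pull-down 2 over pull-down 3 and 0.94 (1.92-fold) for control 1 over control 2, where the median over all probes was 0.00 on both sides after rounding. A gap of at least 2-fold was reached by 4 of the 9 genes between pull-downs 2 and 3 (IFIT1, ISG15, MX1 and OAS2), against 0.278% of all probes, and by 4 of the 9 between the controls (IFI6, ISG15, MX1 and OAS2), against 0.454% of all probes. The genes were chosen for such gaps, so nothing is read from these shares beyond their size. Pull-down 1 was intermediate for most genes. It was below pull-down 2 in 12 of 13 probes (45.7% of all probes) and by at least 2-fold in 2 of the 9 genes, IFI6 and IFIT1 (2.33% of all probes). It was above pull-down 3 in 9 of 13 probes (54.5% of all probes) and by at least 2-fold in MX1 alone (0.875% of all probes). The highest and lowest pull-down were at least 2-fold apart in 5 of the 9 genes, against 4.86% of all probes.

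**Figure D2:**
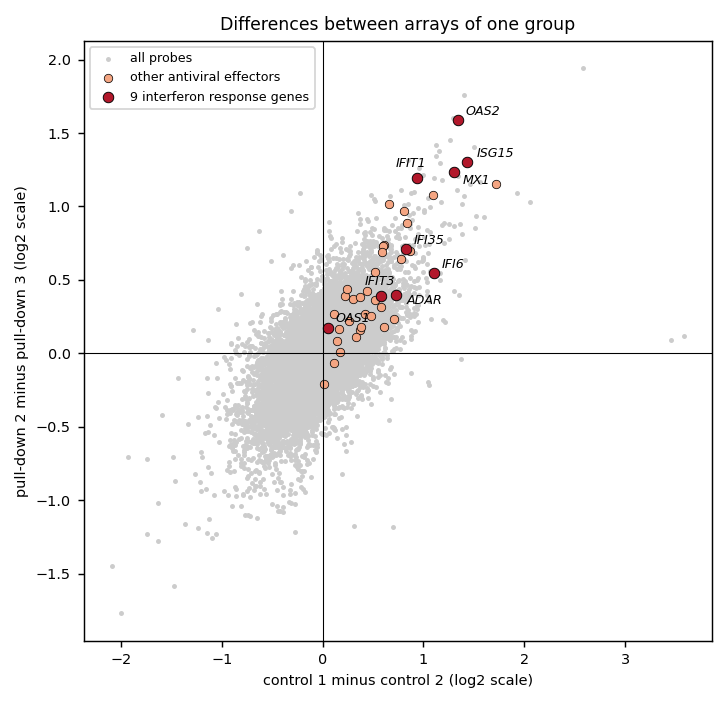
Difference between pull-downs 2 and 3 (vertical axis, log2 scale) against the difference between controls 1 and 2 (horizontal axis, log2 scale) for 14747 probes (grey), other antiviral effectors (orange) and the 9 interferon response genes (red), each gene by its brightest probe. All 9 lie above 0 on both axes, from OAS1 near the centre to OAS2 and ISG15 far from it.

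The same arrays stood apart for other probes too. Across all 14747 probes the pull-down 2 minus pull-down 3 difference and the control 1 minus control 2 difference, which share no array, had a Pearson r of 0.65, and their signs matched in 70.5% of probes. Without the 123 probes of the interferon lists r was 0.64 over 14624 probes. Against the same control difference r was 0.24 for pull-down 1 minus pull-down 3 and -0.17 for pull-down 1 minus pull-down 2. These are correlations across probes, which are not independent replicates. The direction of the 9 genes was thus shared by many probes outside the interferon lists, and although each lysate was taken from cells that went on to a pull-down, the sources do not say which lysate and which pull-down belong together.

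Between the groups the 9 genes lay on both sides of 0. Pull-down minus control was positive for IFIT1 (0.38, SE 0.45), OAS2 (0.22, SE 0.57), OAS1 (0.10, SE 0.11), IFI6 (0.10, SE 0.46) and MX1 (9.50 in pull-downs against 9.37 in controls), and negative for ISG15, IFI35 (9.24 ± 0.37 in pull-downs, SD, n = 3, and 9.57 ± 0.59 in controls, SD, n = 2), IFIT3 and ADAR. The median over the 9 was 0.10 and over all probes 0.04. Values of pull-down and control did not overlap for 2 of the 9 genes and 3 of the 13 probes, where 51.5% of all probes had no overlap. The median turned with the array left out: it was 0.64 without control 1 and -0.53 without control 2, and it was negative without pull-down 1 (-0.14) or pull-down 2 (-0.21).

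**Figure D3:**
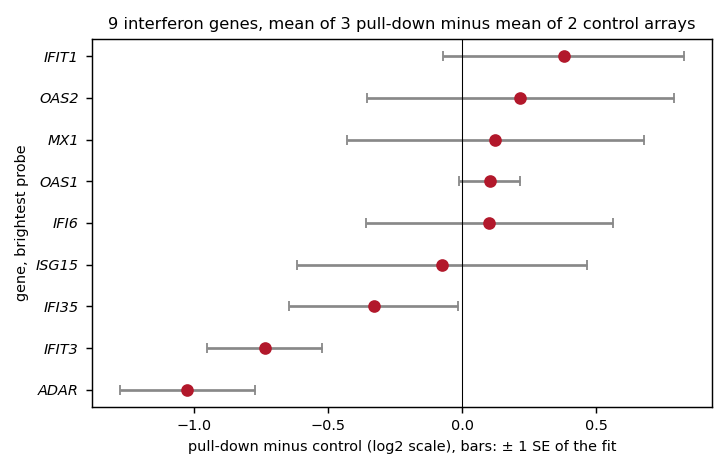
Pull-down minus control difference (horizontal axis, log2 scale) of the brightest probe of each of the 9 interferon response genes, 3 pull-down against 2 control arrays. Points are the differences and bars 1 standard error of the fit on each side; the bars of IFI35, IFIT3 and ADAR lie wholly below 0.

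Other genes of the interferon pathway, outside the 9, were tested between pull-down and control. Their lists were drawn up with earlier results of these data known, so the counts below are not independent of these data. Of 129 such genes on 6 lists, 82 were measured. With limma over all probes and Benjamini-Hochberg adjustment, 0 of the 82 were higher and 6 lower in pull-downs at an adjusted p under 0.05, beside 7.64% of all probes higher and 7.09% lower (14.7% in either direction). Without adjustment, 3 of the 82 were higher at p under 0.05, against 16.8% of all probes, and 12 were lower, against 14.9% of all probes. The 6 that fell with adjustment were IFNAR1, PNPT1, GBP3, HLA-C, HLA-F and WARS1. Of these 6, 4 were still called without pull-down 1, 2 without pull-down 3, and 0 without pull-down 2, control 1 or control 2.

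The order of the arrays seen in the 9 genes was present in the other interferon genes as well. Pull-down 2 was above pull-down 3 in 67 of the 82 and control 1 above control 2 in 69, and both held in 63 (76.8%, against 35.1% of all probes). Among the antiviral effectors, the genes that act at the end of the pathway, pull-down 2 exceeded pull-down 3 in 30 of 32 and control 1 exceeded control 2 in 32 of 32, with median gaps of 0.36 and 0.46. No set test was run on these counts.

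**Figure D4:**
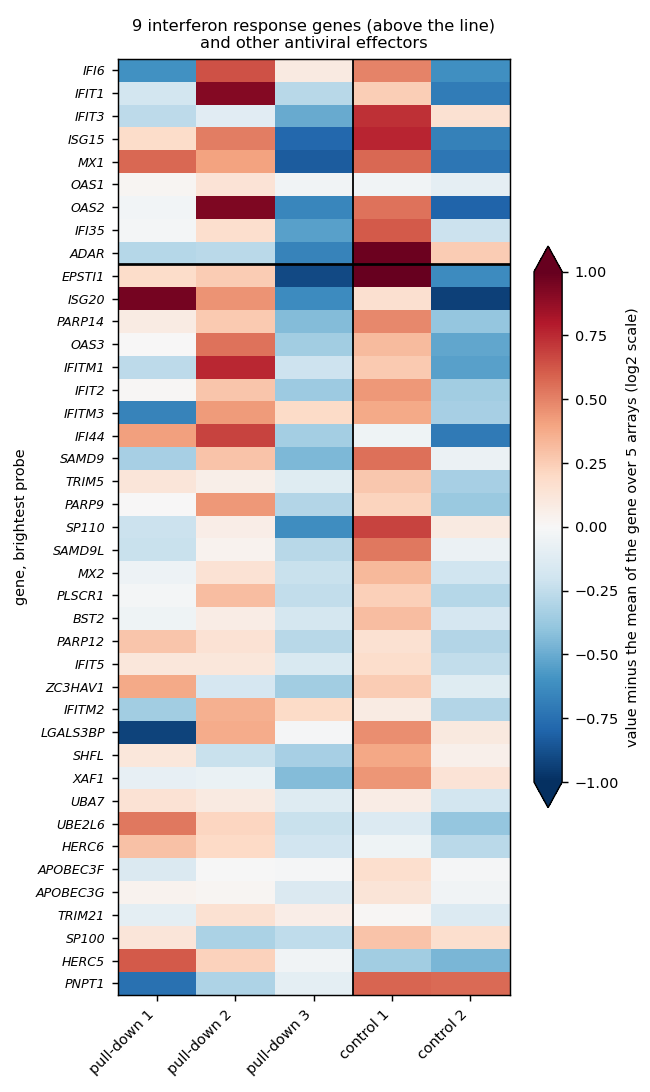
Value of each gene on each array minus the mean of that gene over the 5 arrays (colour, log2 scale, cut at 1 on either side), for the 9 interferon response genes above the line and 32 other antiviral effectors below it, ordered by the gap between controls 1 and 2. Pull-down 2 and control 1 are mostly red, pull-down 3 and control 2 mostly blue, and PNPT1 at the foot differs mainly between the groups.

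EPSTI1 and ISG20 had the widest gaps between the controls among these effectors. EPSTI1, an interferon-induced gene first described in epithelial and stromal cultures, measured 9.46, 9.53 and 8.38 in pull-downs 1, 2 and 3 and 10.37 and 8.65 in controls 1 and 2. ISG20, an exonuclease that degrades single-stranded RNA, measured 10.53, 10.02 and 8.95 in pull-downs and 9.73 and 8.64 in controls. In both genes pull-down 3 was the lowest pull-down and control 2 the lower control, and their group ranges overlapped. Of the other effectors IFIT2, a partner of IFIT1 and IFIT3, gave 9.07, 9.33 and 8.69 in pull-downs and 9.49 and 8.71 in controls, and OAS3 gave 8.71, 9.25 and 8.36 in pull-downs and 9.02 and 8.19 in controls, both in the order of the 9 genes.

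Of the 32 effectors, 0 were higher and 1 was lower in pull-downs by the test (7.64% and 7.09% of all probes), and the median difference was -0.06. HERC5, the main ligase that attaches ISG15, was 0.67 higher (SE 0.21, limma adjusted p = 0.0835) and ISG20 0.65 higher (SE 0.53, limma adjusted p = 0.458), and neither passed. SP110, a nuclear body protein, differed by -0.64 (SE 0.26, limma adjusted p = 0.166). Its other probes differed by -0.89 (limma adjusted p = 0.0742) and -0.95 (limma adjusted p = 0.0861) and did not pass either. PNPT1, a mitochondrial RNA exonuclease that interferon induces, was the only effector that passed, with 12.96, 13.39 and 13.60 in pull-downs and 14.28 and 14.27 in controls. It fell by 0.96 (SE 0.20, limma adjusted p = 0.0342). Its other probes fell too, by 0.83 (limma adjusted p = 0.0328) on one and by 1.43 (limma adjusted p = 0.0178) on the other. On the brightest PNPT1 probe the controls lay 0.01 apart, and pull-down 2 was below pull-down 3, so this probe did not have the order of the 9. The other PNPT1 probes differed in this. One gave 8.43 in pull-down 2, 8.27 in pull-down 3, 9.43 in control 1 and 8.94 in control 2, which is that order. On the other, pull-down 2 was below pull-down 3 (11.58 against 12.12) and control 1 below control 2 (13.04 against 13.26), with pull-down 1 at 11.47.

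Genes of the interferon-gamma response and of antigen presentation had the same order of arrays, in 17 of 18 between pull-downs 2 and 3 and in 18 of 18 between the controls. Their median pull-down minus control difference was -0.43, against 0.04 over all probes, and 4 of the 18 passed the test, all downward, beside 7.09% of all probes called lower. WARS1, the tryptophanyl-tRNA synthetase that interferon-gamma induces, measured 10.41, 10.37 and 10.30 in pull-downs and 11.65 and 11.17 in controls, a fall of 1.05 (SE 0.17, limma adjusted p = 0.0186), and its second probe fell by 0.91 (limma adjusted p = 0.0235). GBP3, a guanylate-binding protein, measured 9.28, 9.09 and 8.99 in pull-downs and 10.06 and 9.80 in controls, a fall of 0.81 (SE 0.15, limma adjusted p = 0.0237). In WARS1 and GBP3 the 3 pull-downs lay close together and below both controls.

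The class I HLA genes, which present peptides to T cells, had both differences at once. HLA-F measured 9.27, 10.75 and 9.97 in pull-downs 1, 2 and 3 and 12.98 and 11.73 in controls 1 and 2, 5.15-fold lower in pull-downs (limma adjusted p = 0.0389). HLA-C measured 7.85, 8.53 and 8.16 in pull-downs and 9.75 and 9.09 in controls (limma adjusted p = 0.0379). HLA-B gave 9.72, 11.52 and 10.64 in pull-downs and 13.73 and 12.36 in controls, a difference of -2.42 (SE 0.62) that missed the threshold (limma adjusted p = 0.0532). These genes are related in sequence and a probe of one may read another, which was not checked here. The values are therefore uncertain for any single gene, and the second HLA-F probe differed by only -0.18 (limma adjusted p = 0.441). The immunoproteasome subunits PSMB9 and PSMB10, which cut the peptides, were 0.44 (SE 0.20, limma adjusted p = 0.202) and 0.25 (SE 0.26, limma adjusted p = 0.562) higher in pull-downs and did not pass.

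At the start of the pathway, among the receptors, pull-down 2 was above pull-down 3 in 2 of 5 genes and control 1 above control 2 in 2 of 5. The type I receptor chain IFNAR1 measured 9.35, 9.27 and 9.63 in pull-downs and 10.38 and 10.14 in controls, a fall of 0.84 (SE 0.16, limma adjusted p = 0.0263). Its partner IFNAR2 gave 9.06, 8.87 and 9.30 in pull-downs and 8.37 and 8.70 in controls, without overlap but on the other side (0.54, SE 0.18, limma adjusted p = 0.0984), and it did not pass. IFNGR2, a chain of the interferon-gamma receptor, differed by 1.05 (SE 0.31, limma adjusted p = 0.0753) and IL10RB, shared by the receptors of interferon lambda and interleukin 10, by -0.49 (SE 0.49, limma adjusted p = 0.543). The other IL10RB probe differed by -0.56 (SE 0.18, limma adjusted p = 0.0966).

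Of the signal transducers and transcription factors 8 of 13 were measured, and 0 passed, beside 14.7% of all probes called in either direction. JAK1 measured 9.64, 9.75 and 9.10 in pull-downs and 10.99 and 10.18 in controls (limma adjusted p = 0.0671), and TYK2 differed by -0.34 (SE 0.21, limma adjusted p = 0.324). IRF9, a DNA-binding factor of the type I response, measured 9.95, 10.88 and 9.56 in pull-downs and 10.17 and 9.32 in controls. IRF1, which is itself induced by interferon, measured 10.48, 9.58 and 9.27 in pull-downs and 9.40 and 8.80 in controls. Both had the order of the 9 genes between pull-downs 2 and 3 and between the controls. IRF9 was highest in pull-down 2 and IRF1 in pull-down 1.

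Among the sensors and adaptors 11 of 18 were measured and 0 passed, beside 14.7% of all probes called. Pull-down 2 was above pull-down 3 in 6 and control 1 above control 2 in 7. EIF2AK2, the kinase that stops translation on binding double-stranded RNA, measured 11.35, 11.82 and 11.43 in pull-downs and 12.12 and 11.63 in controls. IFI16, a DNA sensor, measured 10.80, 10.60 and 10.07 in pull-downs and 10.84 and 10.34 in controls. TRIM25, the ligase that activates the sensor RIG-I, came close to the threshold at -0.66 (SE 0.16, limma adjusted p = 0.0501). TICAM1, the adaptor of TLR3, and CGAS, the cytosolic DNA sensor, differed by 0.55 (limma adjusted p = 0.174) and 0.27 (limma adjusted p = 0.258).

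Negative regulators were measured for 8 of 12 genes, and 0 passed, beside 14.7% of all probes called. USP18, which removes ISG15 from proteins and blocks the type I receptor, had the order of the 9 genes at a low signal, with 7.96, 8.24 and 7.87 in pull-downs and 8.48 and 7.85 in controls. SOCS1, an inhibitor of JAK kinases, measured 8.82, 8.98 and 8.75 in pull-downs and 8.81 and 8.49 in controls. PIAS1, a SUMO ligase that dampens the response, differed by -0.51 (SE 0.15, limma adjusted p = 0.0806), TNFAIP3 (A20), which curbs NF-kB, by -0.33 (SE 0.16, limma adjusted p = 0.222) and PTPN2, a phosphatase of JAK1, by 0.19 (SE 0.26, limma adjusted p = 0.661).

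**Figure D5:**
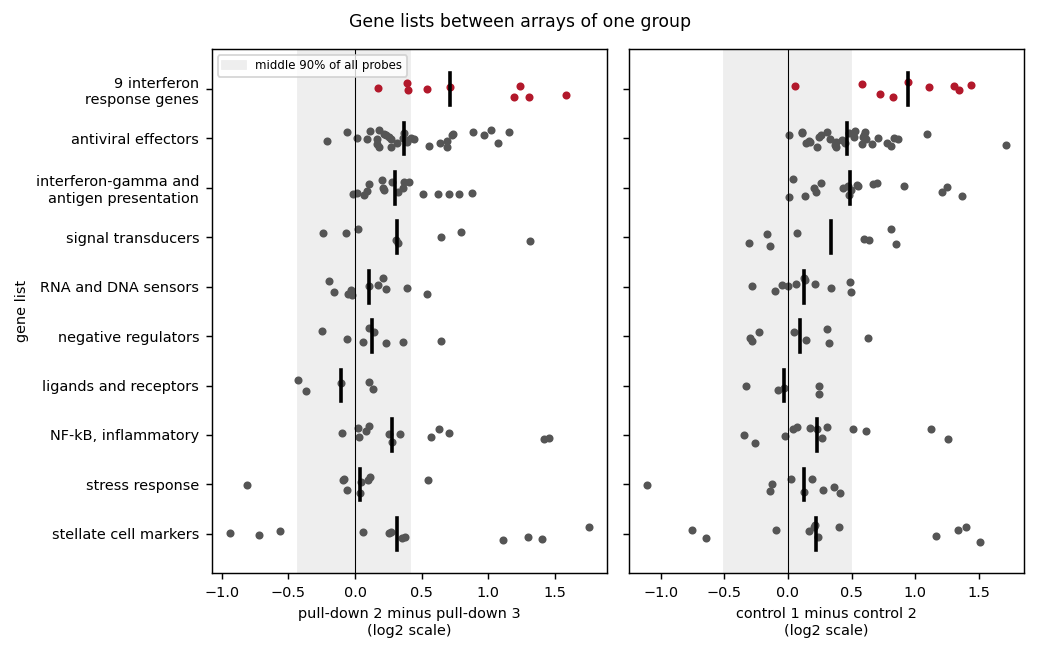
Difference between pull-downs 2 and 3 (left) and between controls 1 and 2 (right) on the log2 scale for each gene (points) of 10 lists, with the median as a bar and the middle 90% of all probes in grey. All 9 interferon response genes lie to the right of 0 in both panels, as do 30 of 32 antiviral effectors on the left and 32 of 32 on the right, and the stellate cell markers spread to both sides.

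The array difference was not limited to interferon genes. Stellate cell and fibroblast markers spread widely in the same direction: pull-down 2 exceeded pull-down 3 in 9 of 12 and control 1 exceeded control 2 in 9 of 12, with gaps of at least 2-fold in 4 genes on either side (COL1A1, COL3A1, PDGFRA and SPARC). COL1A1, a chain of type I collagen, measured 8.87, 11.53 and 10.13 in pull-downs 1, 2 and 3 and 12.57 and 11.07 in controls 1 and 2. ACTA2, the smooth muscle actin of activated stellate cells, ran the other way, with 10.27, 10.12 and 11.06 in pull-downs and 9.89 and 10.64 in controls. The mean of the 12 markers was 9.98, 10.92 and 10.54 in pull-downs and 11.00 and 10.57 in controls. Their part in the result on the 9 genes was not tested.

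Among NF-kB and inflammatory genes, 12 of 13 were higher in pull-down 2 than in pull-down 3 and 10 of 13 in control 1 than in control 2. Between the groups 0 passed the test, beside 14.7% of all probes called. Without adjustment, 4 of the 13 were higher at a limma p under 0.05 (16.8% of all probes) and 0 lower (14.9%). CCL5, a chemokine that both NF-kB and interferon factors induce, measured 10.16, 9.97 and 8.52 in pull-downs and 9.75 and 8.50 in controls. On this probe it had the pattern of MX1. The other CCL5 probe gave 8.75, 9.10 and 7.84 in pull-downs and 8.82 and 7.86 in controls, with pull-down 1 below pull-down 2. CXCL2, a chemokine of neutrophils, measured 12.12, 11.16 and 11.26 in pull-downs and 10.23 and 10.58 in controls and did not have the pattern of MX1. Of the unfolded protein and stress response genes 5 of 9 were higher in pull-down 2 than in pull-down 3 and 6 of 9 in control 1 than in control 2. DDIT3, a stress-induced transcription factor, was lower in pull-down 2 than in pull-down 3 and lower in control 1 than in control 2, with 10.36, 9.31 and 10.13 in pull-downs and 9.32 and 10.43 in controls. TRIB3, another gene of that response, gave 10.95, 9.95 and 10.04 in pull-downs and 9.66 and 9.78 in controls.

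The genes whose profile was most like the average of the 9, by root mean square difference over the 5 arrays after each gene was centred, were MYLK (0.0637), NDUFA6 (0.0671), PARP14 (0.0881), IFIT2 (0.0894), TMEM171 (0.110), MAP3K5 (0.113), PPFIBP1 (0.115), FAM180A (0.123), DOCK10 (0.129) and STARD13 (0.132). The median over 9259 other genes was 0.458. PARP14 and IFIT2 are on the list of antiviral effectors, and the other 8 are on none of the interferon lists. MYLK, the myosin light chain kinase, measured 9.83, 10.44 and 9.59 in pull-downs and 10.55 and 9.68 in controls, and PARP14, an ADP-ribosyltransferase, 8.57, 8.75 and 8.06 in pull-downs and 8.97 and 8.10 in controls. Among the 100 nearest genes 9 were on the interferon lists, which hold 0.886% of the genes compared: PARP14, IFIT2, OAS3, PARP9, PLSCR1, USP18, SAMD9, MX2 and B2M. These 9 are 11.0% of the interferon list genes measured. The average profile comes from genes selected on these arrays, and the lists were drawn up with earlier results known. Nothing is read from these shares beyond their size.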

How the data were processed

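Expression was measured on 5 Illumina HT-12 arrays. According to the methods of the study, the authors took the signals out of GenomeStudio and normalized them with lumi. The submitters' processing notes list lumi and limma but no version of either. From the files, 1 value for each probe and array was used. The authors normalized these values with lumi before they deposited them, on a scale that is log2 or close to it. The sources leave out whether lumi's variance-stabilizing transform was applied, and if it was, changes of dim probes are understated. The non-normalized signals were left aside, because none of the names of their 10 per-sample columns (5 signals) could be matched to a sample, and background, detection and position on the chip were therefore not examined. An additional lysate array that the study dropped for weak signal was not analysed here. The replicates are independent biological ones in the description of the study, and precision is limited by how many arrays there are.

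Gene names were those of the platform annotation at GEO, some of them possibly outdated. A single symbol was given for 11970 probes, several for 1 and none for 2776, which named 9268 genes. Of these probes 11963 had a RefSeq gene ID, and 0 symbols changed. Where a gene had several probes, the brightest over the 5 arrays stood for it. The members and the gene lists were chosen with earlier results of these data known. Besides the members, the text names from each interferon list the 2 highest and 2 lowest genes by pull-down minus control, the 2 with the widest gap between the controls and every gene that passed, then the 10 genes most like the members, and the 2 genes with the widest spread on each comparison list. IFIT2, OAS3, VIM, DCN, COL1A1, COL3A1, PDGFRA, SPARC, ACTA2 and the markers of other cells were named after their values were seen, as examples.

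Pull-down and control were compared by lmFit and eBayes of limma 3.58.1 in R 4.3.3. The fit took in all 5 arrays without a block, tests were two-sided, and p-values were adjusted by Benjamini-Hochberg over 14747 probes with a threshold of 0.05. Residual degrees of freedom were 3 and prior ones 2.75. The procedure was tested on simulated data with independent noise for each probe and array. Such data lack the differences shared by many probes between these arrays, so the simulation does not check the calls made here. Standard errors are those of the fit. Alternatives were each array left out in turn, median scaling, cyclic loess, a trended and robust prior, the replicate number as a block, all probes of a gene, and leaving out the dimmest 25% of probes.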

Additional observations from a re-analysis of the deposited data

How the results depend on the processing

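The count of probes called between pull-down and control ranged from 0 to 2389 as single arrays were left out, against 2172 with all 5: 387 without pull-down 2, 912 without pull-down 3, 0 without control 1 and 91 without control 2. The count of other interferon genes called ranged from 0 to 9, against 6 with all arrays (0 without pull-down 2, control 1 or control 2, and 2 without pull-down 3). Leaving out a control leaves 1 control array, which is assumed to vary like the pull-downs. The count of other interferon genes was 10 with a trended and robust prior and 10 without the dimmest 25% of probes. It was 6 under median scaling and 8 under cyclic loess, and the same 6 genes were among those called in both. Cyclic loess added HLA-B (limma adjusted p = 0.0497) and TRIM25 (limma adjusted p = 0.0425). By the methods each lysate came from cells also used for a pull-down, which makes the design a paired one. Pull-downs and controls share replicate numbers 1 and 2 in their titles, but no source says that these numbers mark the pairs, so standard errors and calls are unpaired. With that number as a replicate block, 215 probes and 0 of the other interferon genes were called. No control carries the number 3 here, so pull-down 3 then adds nothing to the difference. The median pull-down minus control difference of the 9 genes was 0.14 with the block and ran from -0.53 to 0.64 as single arrays were left out. The median range over pull-downs, 1.19, became 0.19 to 0.71 with 1 pull-down left out (0.52 without pull-down 2, 0.19 without pull-down 3), and 0.71 over every probe of each gene with all arrays kept. The gaps between the controls kept their direction under both scalings, at 0.92 and 0.93 against 0.94. Over 30 named genes with a test, leaving out an array or rescaling kept the side of the threshold in 181 refits, lost it in 24 and gained it in 5. Only the 6 genes called with all arrays could lose the call, and all losses fell on them. The kept refits include those of genes that were never called. With 2 control arrays the spread of the control group rests on a single difference.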
